A study of Mus musculus with 4 samples.

Results

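The 6 genes described here, Ttr, Sostdc1, Enpp2, Kl, Clic6 and Folr1, are known as transcripts of the choroid plexus, and Ttr is the one with the widest spread between the arrays. They are measured by the 14 probe sets that the authors' deposited table names with one of these symbols, of 45101 probe sets on the array. The genes were selected on their log2 values on these 4 arrays, as known choroid plexus transcripts of which some differed between the arrays, so the values below describe them, and no test is read from them. Arrays hybridised with RNA of the cerebral cortex came from female C57BL/6J mice, an inbred laboratory strain, at 90 days of age. The 2 arrays titled nicotine stand for offspring exposed to nicotine through the dam from conception and then until weaning at day 21. The 2 arrays titled saccharin stand for offspring given saccharin, a sweetener, over the same period, and all animals were then left untreated. Title and source name name opposite exposures for each of the 4 arrays, so each group is called by its title, and every sign turns if the source names are right. The protocol describes pools of RNA from 4 animals, 5 pools per group and 20 subjects, and the labels do not say whether both arrays of a group were made from different pools.

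The choroid plexus is a folded epithelium in the brain ventricles that secretes cerebrospinal fluid and forms the barrier between blood and that fluid. It makes large amounts of transthyretin, the product of Ttr, which carries thyroid hormone and retinol and is released into the fluid. Cortical neurons and glia are not known as main sources of Ttr, whereas Enpp2 is also known from oligodendrocytes and Kl from some neurons. In RNA of a whole tissue, fewer cells of a type and less RNA per cell cannot be told apart.

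The median log2 value of an array was 3.88 to 4.09, and the lowest value, 2.10, was common to all of them. A value below 2.2 is taken here as background, which applied to 14459 probe sets on all 4 arrays. The same value on every array was found in 14488 probe sets (32.1%), of which 1741 were at or above 2.2. How such ties arose is not stated in the labels, so a tie is not read here as measured agreement. Arrays of the same number were closer than arrays of the same title: 359 probe sets differed by at least 1 log2 unit between titled nicotine 1 and titled saccharin 1, and 2054 between titled nicotine 2 and titled saccharin 2. Between the arrays of a title, 5474 did so for titled nicotine and 4483 for titled saccharin. Differences are therefore given within each number beside the difference of means. All 13 measured cortical genes reached the median level of all probe sets, 4.04, at their brightest probe set (highest mean). So did 12206 of all 20737 genes, 9 of 12 striatal genes and 8 of 10 genes of thalamus and habenula. Reaching this level therefore does not identify the tissue.

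Ttr was high on titled nicotine 2 and low on titled saccharin 2, with both arrays of number 1 in between. Its brightest probe set, 1454608_x_at, read 12.01 and 13.96 on titled nicotine 1 and 2, and 11.84 and 10.75 on titled saccharin 1 and 2. The groups did not overlap, but both arrays of number 1 lay within 0.17 of each other, and nearly all of the separation came from number 2. There the difference was 3.21, a 9.23-fold higher level in titled nicotine 2. Within number 1 it was 1.13-fold. The means were 12.99 ± 1.38 in titled nicotine and 11.30 ± 0.77 in titled saccharin (SD, n = 2 each), a difference of 1.69 with a limma SE of 1.03. Without titled nicotine 2 the difference was 0.72.

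The other Ttr probe sets followed the same order of arrays. Probe set 1455913_x_at read 11.38 and 13.33 in titled nicotine and 11.20 and 10.15 in titled saccharin. Probe set 1459737_s_at read 11.00 and 13.25 in titled nicotine and 10.85 and 9.70 in titled saccharin. The dimmest of the 4, 1451580_a_at, read 9.23 and 11.72 in titled nicotine and 8.96 and 7.69 in titled saccharin, and it had the widest range, 4.03. In the maker's naming, the endings of these identifiers mark probe sets whose probes can match more than 1 transcript, and the 4 sets measure the same transcript on the same arrays, so they are not replicates. Their differences within number 2 were between 3.18 and 4.03, and those within number 1 between 0.16 and 0.28.

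**Figure D1:**
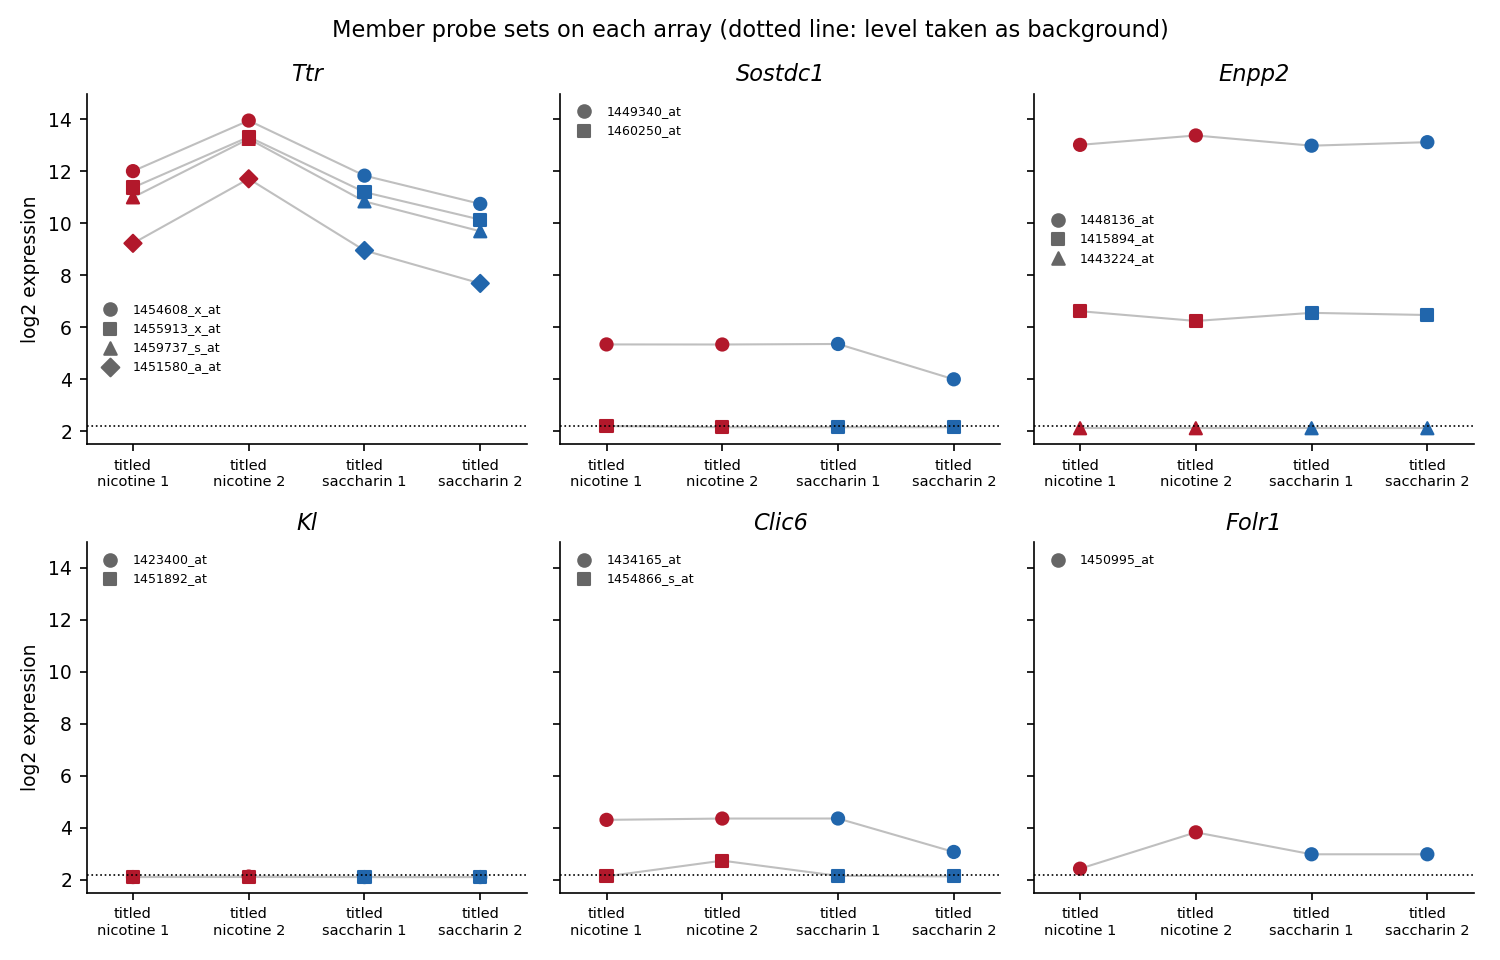
Log2 expression (vertical axis) of the 14 member probe sets on each of the 4 arrays (horizontal axis), 1 panel per gene and 1 marker shape per probe set, with arrays titled nicotine in red and arrays titled saccharin in blue. The 4 Ttr probe sets peak on titled nicotine 2 and are lowest on titled saccharin 2, Sostdc1 and the brighter Clic6 probe set drop on titled saccharin 2 only, and Kl lies below the dotted background line at 2.2.

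Sostdc1, which encodes a secreted antagonist of BMP and Wnt signals, did not share the high value on titled nicotine 2. Its brighter probe set, 1449340_at, read 5.34 on both arrays titled nicotine, 5.36 on titled saccharin 1 and 4.00 on titled saccharin 2. Thus 3 arrays were alike and titled saccharin 2 stood apart on the low side. The difference was 1.34 within number 2 and -0.017 within number 1, and the groups overlapped. The means were 5.34 ± 0.0019 in titled nicotine and 4.68 ± 0.96 in titled saccharin (SD, n = 2 each), a difference of 0.66 with an SE of 0.63 that became -0.019 without titled saccharin 2. The second probe set, 1460250_at, was at 2.2, the background level, on titled nicotine 1 and below it on the other arrays, so it gives no usable difference.

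Clic6, a member of the chloride intracellular channel family, had the same shape as Sostdc1 at its brighter probe set. Probe set 1434165_at read 4.31 and 4.36 in titled nicotine and 4.36 and 3.07 in titled saccharin, and only titled saccharin 2 stood apart. The difference was 1.29 within number 2 and -0.052 within number 1, at a mean over the 4 arrays of 4.02, just under the median level. The difference of means, 0.62 with an SE of 0.60, was -0.027 without titled saccharin 2. The dimmer probe set, 1454866_s_at, was above background on 1 array only, at 2.74 on titled nicotine 2, against 2.13 on titled nicotine 1 and 2.15 and 2.13 in titled saccharin. The probe sets of this gene therefore set different arrays of number 2 apart, the dimmer one titled nicotine 2 and the brighter one titled saccharin 2.

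Folr1 encodes the folate receptor with which the choroid plexus moves folate into the fluid. Its single probe set, 1450995_at, read 2.43 and 3.83 in titled nicotine and 2.98 on both arrays titled saccharin. The arrays titled nicotine lay on both sides of those titled saccharin. The difference was 0.84 within number 2 and -0.55 within number 1. The difference of means, 0.15 with an SE of 0.65, was -0.55 without titled nicotine 2. All 4 values are below the median level of the array.

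Kl, the gene of klotho, a membrane protein of calcium and phosphate balance, was at background throughout. Probe set 1423400_at read 2.10 and 2.12 in titled nicotine and 2.10 on both arrays titled saccharin, and 1451892_at read 2.10 on all 4. A transcript at this level was not detectable on these arrays, and no difference can be read from it.

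Enpp2, the gene of autotaxin, a secreted enzyme that makes lysophosphatidic acid, was bright and nearly level. Probe set 1448136_at read 13.02 and 13.38 in titled nicotine and 12.99 and 13.13 in titled saccharin. The difference was 0.26 within number 2 and 0.032 within number 1, and the groups overlapped. Probe set 1415894_at read 6.62 and 6.25 in titled nicotine and 6.56 and 6.47 in titled saccharin, with the opposite sign within number 2, -0.23. The last one, 1443224_at, read 2.12 on every array. Oligodendrocytes are known to express Enpp2 as well, and the 15 measured oligodendrocyte and myelin genes had a median difference of 0.25 within number 2 and 0.013 within number 1. All 15 were higher in titled nicotine 2 than in titled saccharin 2, with differences between 0.10 and 1.01, and 9 of the 15 were higher in titled nicotine 1 than in titled saccharin 1. The widest was that of Gjb1, a connexin gene, which read 5.18 and 6.39 in titled nicotine and 5.31 and 5.38 in titled saccharin. Cldn11, a claudin gene of myelin, differed by 0.42 within number 2. The summed linear level of the 15 genes was 187288 and 192849 in titled nicotine and 181470 and 162581 in titled saccharin, so titled saccharin 2 was the lowest array. The part of oligodendrocyte RNA in the Enpp2 values was not tested.

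Taking the members as a set, 7 of the 14 probe sets, of Ttr, Sostdc1 and Enpp2, reached the median level, and 3 were below background on every array. Titled nicotine 2 was at least 1 log2 unit (2-fold) above titled saccharin 2 in 6 member probe sets of 3 genes, Ttr, Sostdc1 and Clic6, where 1.82% of all probe sets were, and it was as far below it in 0 of the 14, against 2.74% of all. Titled nicotine 1 and titled saccharin 1 differed by as much in 0 of the 14, where 0.412% of all probe sets were higher and 0.384% lower. The groups did not overlap in 4 members, all of Ttr and all higher in titled nicotine. Over all probe sets 1.73% were higher without overlap and 3.64% lower. These counts come from the values that chose the genes, so nothing is read from them. With 1 probe set per gene the median difference was 1.07 within number 2 and -0.0086 within number 1. Over all 20737 genes it was 0 in both numbers, and over those that reached the median level -0.040 and -0.010. The members were chosen on these values, so nothing is read from this contrast either. The comparison of the titles with limma gave an adjusted p below 0.05 for 1 of all probe sets (0.00222%), which was no member, and for 347 (0.769%) at an unadjusted p under 0.05. With 4 arrays the smallest two-sided p of an exact permutation test is 0.333.

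The direction of the Ttr shift between the numbers depended on the title. From titled nicotine 1 to titled nicotine 2 the Ttr probe sets were higher by 1.95 to 2.48, and between the arrays titled saccharin the same subtraction, number 2 minus number 1, gave -1.27 to -1.06. Over all probe sets that reached the median level the shifts of the titles went together, with a correlation of 0.857 across probe sets, which share arrays and are not independent. A shift of at least 1 up in titled nicotine and at least 1 down in titled saccharin was found in 4 of 45101 probe sets (0.00887%), and these 4 were the Ttr probe sets. This count was chosen after the Ttr values were seen. For Sostdc1 the shifts were -0.0027 in titled nicotine and -1.36 in titled saccharin, and for Folr1 1.40 and 0.00038. Clic6 had 0.051 and -1.29 at its brighter probe set. Its dimmer probe set, above background on 1 array only, had 0.60 and -0.022. Both Clic6 probe sets thus had the signs of Ttr, but none of these genes shifted by at least 1 in both titles.

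**Figure D2:**
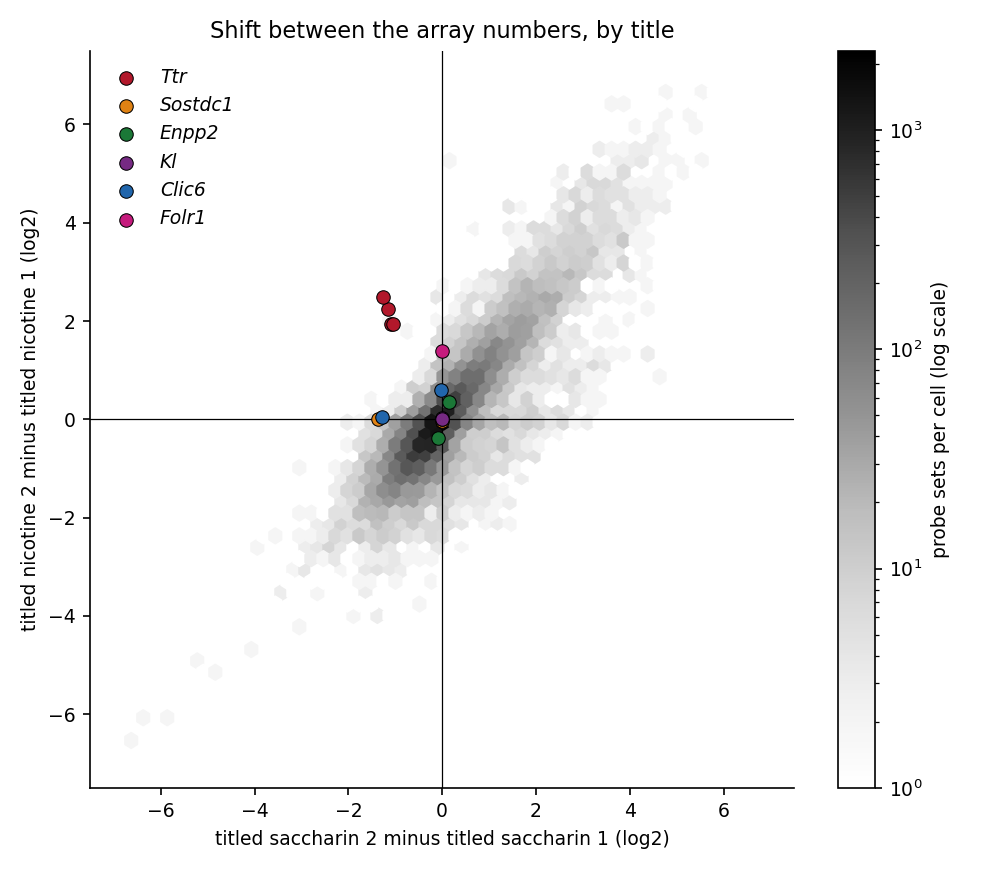
Shift between the array numbers for the arrays titled nicotine (vertical axis, number 2 minus number 1, log2) against the same shift for the arrays titled saccharin (horizontal axis), in grey for all probe sets that reached the median level and in colour for the 14 members. Most probe sets lie along the diagonal, whereas the 4 Ttr probe sets lie at 1.95 to 2.48 on the vertical and -1.27 to -1.06 on the horizontal axis.

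Single arrays that stood apart were counted in the same way, again after the values were seen. Titled nicotine 2 was at least 1 above each of the other 3 arrays in 1.60% of all probe sets, and 4 members, all of Ttr, were among them. Titled saccharin 2 was at least 1 below each of the other 3 in 59 probe sets (0.131%), and 6 of these were members: the 4 of Ttr, 1 of Sostdc1 and 1 of Clic6. No member stood apart by this measure on titled nicotine 1 or titled saccharin 1. Of the probe sets that reached the median level, 8 (0.0355%) were higher by 3 or more in titled nicotine 2 than in titled saccharin 2. Beside the 4 of Ttr these were 2 of Ids, which encodes a lysosomal sulfatase, with differences of 5.09 and 3.94, 1 of the synaptic scaffold gene Dlg2 with 4.33 and 1 of Ogfod1 with 3.50.

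The other choroid plexus genes are 46 in 3 lists. None of them had a shift between the numbers of at least 1 up in titled nicotine and at least 1 down in titled saccharin. Only 4 of all 45101 probe sets (0.00887%) did, those of Ttr, and the measure was chosen after their values were seen. Nothing is therefore read from this absence. Of the 108 probe sets of the 46 genes, 0 passed limma at an adjusted p below 0.05 in either direction, where 0.00222% of all probe sets did. An unadjusted p under 0.05 was found for 1, against 0.769% of all probe sets. In the authors' deposited list of p-values, 0 of the 108 had an adjusted p below 0.05 (0.031% of all probe sets) and 1 an unadjusted p under 0.05 (1.89%). With so few calls among all probe sets, a count of 0 does not show that these genes were unchanged. The 12 genes below background on all 4 arrays included defining ones: Otx2, the homeobox factor of the plexus epithelium, read 2.10 on every array, and Aqp1, its water channel, 2.11. Slc4a5, Slc16a8, Trpv4, Wfdc2, F5, Tmem72, Cldn2, Rbm47, Lmx1a and Calml4 were also below 2.2 throughout. The 12 are 26.1% of the listed genes, close to the 27.2% of all genes below background on every array, and other listed genes such as Kcnj13 were above it. In the 22 genes that reached the median level, 11 were higher and 11 lower in titled nicotine 2 than in titled saccharin 2, with a median of -0.016, and the median within number 1 was 0.020. All genes of that level together had medians of -0.040 (number 2) and -0.010 (number 1). Otx2, Aqp1 and the other genes below background are not among the 22, and the part of other cell types in the values of the 22 was not tested.

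Among the transport genes, 17 in number, the median within number 2 was 0, and -0.26 over the 9 that reached the median level. Kcnj13, the inward rectifier potassium channel of the plexus epithelium, read 4.51 and 5.38 in titled nicotine and 4.48 and 4.89 in titled saccharin, a difference of 0.50 within number 2 and 0.028 within number 1. Both arrays of number 2 were above both of number 1, unlike Ttr. Trpm3, a cation channel gene, differed by -0.53 within number 2 and 0.0056 within number 1. The copper transporter gene Slc31a1 differed by -0.46 within number 2 and -0.081 within number 1.

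Of the 16 genes of secreted proteins and receptors, Steap1 had the largest difference within number 2, 1.28. It was chosen after its values were seen, since its level is below the median. It read 2.22 and 3.55 in titled nicotine and 2.24 and 2.26 in titled saccharin, so titled nicotine 2 was its only array clearly above background. Cp, the gene of the copper carrier ceruloplasmin, read 6.49 and 6.98 in titled nicotine and 6.59 on both arrays titled saccharin, again with titled nicotine 2 highest. The fluid and meningeal growth factor gene Igf2 read 8.32 and 9.44 in titled nicotine and 8.30 and 9.34 in titled saccharin and so moved with the number, not the title. Col8a1, a collagen gene, differed by -0.20 within number 2 and -0.65 within number 1, and Ace, the gene of angiotensin converting enzyme, by 0.19 and 0.33 in the same order.

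Among the 13 epithelial and transcription factor genes, Perp, a desmosome gene, was the only one with an unadjusted p under 0.05. It read 6.52 and 6.50 in titled nicotine and 7.10 and 7.00 in titled saccharin. The groups did not overlap, and the difference of -0.54 (SE 0.049, limma adjusted p = 1) was opposite in sign to that of Ttr. The endocytic adaptor gene Dab2 read 6.66 and 6.32 in titled nicotine and 6.12 and 5.91 in titled saccharin, without overlap and in the direction of Ttr. Over the 46 genes of the 3 lists, 3 were higher in titled nicotine without overlap (Igfbp2, Tcn2 and Dab2) and 2 lower (Col8a1 and Perp). Over all probe sets, counted without choosing 1 per gene, 1.73% were higher and 3.64% lower. The differences of means were 0.10 for Igfbp2, 0.075 for Tcn2, 0.47 for Dab2 and -0.43 for Col8a1. Nothing is read from this count. Dab2 differed by 0.41 within number 2 and 0.54 within number 1, and the homeobox gene Msx1 by 0.34 and 0.21. The keratin gene Krt18, chosen after its values were seen, read 2.77 on titled nicotine 2 and 2.11 on each of the other arrays.

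Genes of neighbouring tissue and other brain regions were also set beside Ttr, with medians over all measured genes of a list, those at background included. The 16 measured ependymal genes, of the ciliated cells that line the ventricles, had a median of -0.026 within number 2 and 0.0069 within number 1, and Rarres2, Rsph1 and Enkur differed by -0.35, -0.34 and -0.28 within number 2. The sum of their linear levels was 578 and 347 in titled nicotine and 575 and 407 in titled saccharin, lower in both arrays of number 2. The 17 genes of leptomeninges and fibroblasts had a median of -0.0050 within number 2, with Dcn at -0.48, Foxc1 at 0.43 and Fmod at -0.40. Markers of endothelium and blood, 10 measured, had a median of 0.0050, with Pecam1 at 0.96, Abcb1a at -0.48 and Cldn5 at 0.47. In striatum, thalamus and habenula, and hippocampus lists the medians within number 2 were -0.053, 0 and 0. Of these, Ppp1r1b differed by 0.30, Drd1 by -0.22, Penk by -0.17, Tcf7l2 by -0.70, Gpr151 by 0.61, Rgs16 by -0.23, Zbtb20 by -0.47, Wfs1 by -0.42 and Grp by -0.22. The cortical list had a median of 0.050, with Cux2 at -0.30, Nrgn at 0.27 and Tbr1 at 0.21. Over the genes that reached the median level, the medians within number 2 were -0.28 for ependyma (1 higher, 4 lower), -0.11 for leptomeninges (2 higher, 9 lower), -0.013 for endothelium and blood (4 higher, 4 lower), -0.11 for striatum (3 higher, 6 lower), -0.032 for thalamus and habenula (2 higher, 4 lower) and -0.22 for hippocampus (0 higher, 4 lower). In all 8 lists beside those of the choroid plexus 0 probe sets passed the threshold in limma (1 leptomeningeal, 2 oligodendrocyte and 1 cortical probe set had an unadjusted p under 0.05). Since 0.00222% of all probe sets passed, this does not show that the listed genes were unchanged.

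**Figure D3:**
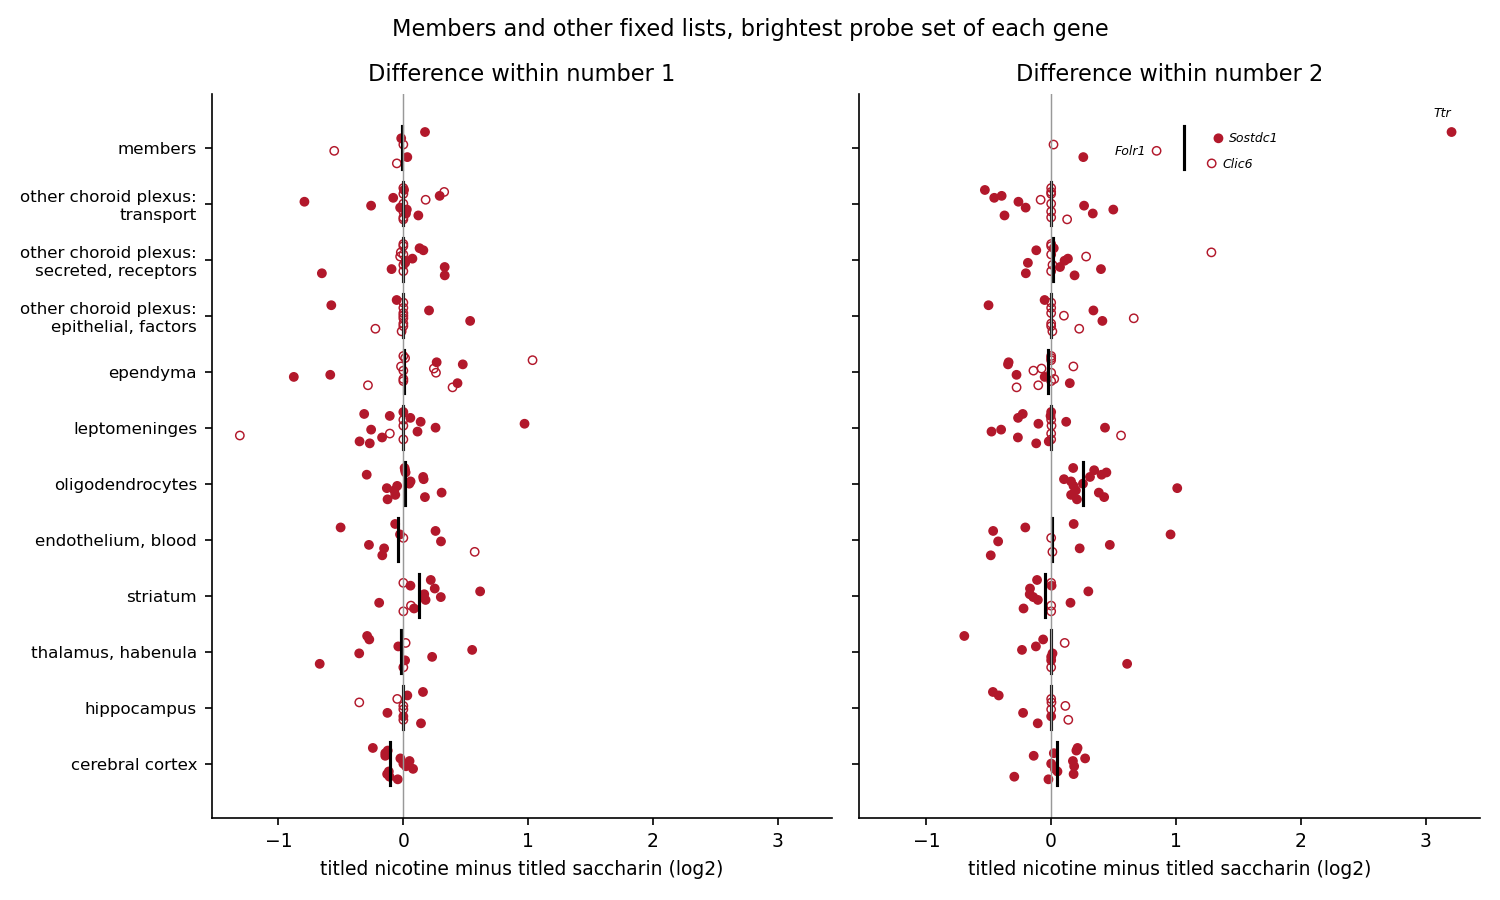
Difference titled nicotine minus titled saccharin (log2) within number 1 (left panel) and within number 2 (right panel) for the brightest probe set of each gene in the 6 members and 11 other lists, filled where the mean level reached the median of all probe sets and open below it, with black bars at the list medians. Ttr at 3.21, Sostdc1 at 1.34, Clic6 at 1.29 and Folr1 at 0.84 lie to the right within number 2, and the members were chosen on these values. The medians of the other choroid plexus lists are at or close to 0, with 13 of their 46 genes at the same value on all 4 arrays.

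RNA quality also differed between the numbers and, in number 2, between the titles. The 3′ probe set of Actb minus its 5′ probe set, which is larger where RNA is degraded or labelling falls short, was 2.39 and 1.25 on titled nicotine 1 and 2, and 2.38 and 1.73 on titled saccharin 1 and 2. For Gapdh this value was 0.092 and -0.14 in titled nicotine and 0.13 and 0.0070 in titled saccharin. Titled nicotine 2 thus had the lowest value of both genes. Its part in the Ttr values was not tested, and neither was the part of choroid plexus tissue in the RNA pools.

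Among probe sets of 1 named gene that reached the median level, the profiles nearest to Ttr did not belong to listed choroid plexus genes. Members and listed genes below that level, such as Clic6 and Folr1, could not be among them. Likeness was measured as the Euclidean distance between the 4 log2 values, each probe set centred on its own mean, from the brightest Ttr probe set. This distance is not scaled, so a profile of the same shape but a smaller range than Ttr also lies far from it. The other Ttr probe sets were at distances of 0.024, 0.27 and 0.61. The next 8 genes were Aplp2, a relative of the amyloid precursor gene, at 0.83, Rsbn1 at 0.86, Cnksr2 at 0.97, Phf3 at 0.98, the glucocorticoid receptor gene Nr3c1 at 1.00, Herc1 at 1.03, Cds2 at 1.05 and Trim44 at 1.07. Clic6 was at 1.72, Sostdc1 at 1.73 and Folr1 at 1.77, with 195, 199 and 236 probe sets of at least median level nearer to Ttr. Enpp2 was at 2.10.

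Each of the 8 genes was high on titled nicotine 2 at this probe set, which was picked for its likeness to Ttr and was not its brightest one. Aplp2, Rsbn1, Cds2 and Trim44 were also lower on titled saccharin 2 than on titled saccharin 1, by 0.40 to 0.67, whereas Cnksr2, Phf3, Nr3c1 and Herc1 did not have this drop. Aplp2 at 1432344_a_at read 9.06 and 10.85 in titled nicotine and 9.37 and 8.69 in titled saccharin, a difference of 2.16 within number 2, but its brightest probe set differed by 0.045 there. Nr3c1 at 1453860_s_at read 3.75 and 6.49 in titled nicotine and 3.76 and 3.75 in titled saccharin, and its brightest probe set differed by -0.097. Across the 8 genes the brightest probe set differed within number 2 by -0.12 (Herc1) to 0.11 (Rsbn1). Ttr differed by 3.18 or more at each of its probe sets, but it was itself chosen on these values.

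**Figure D4:**
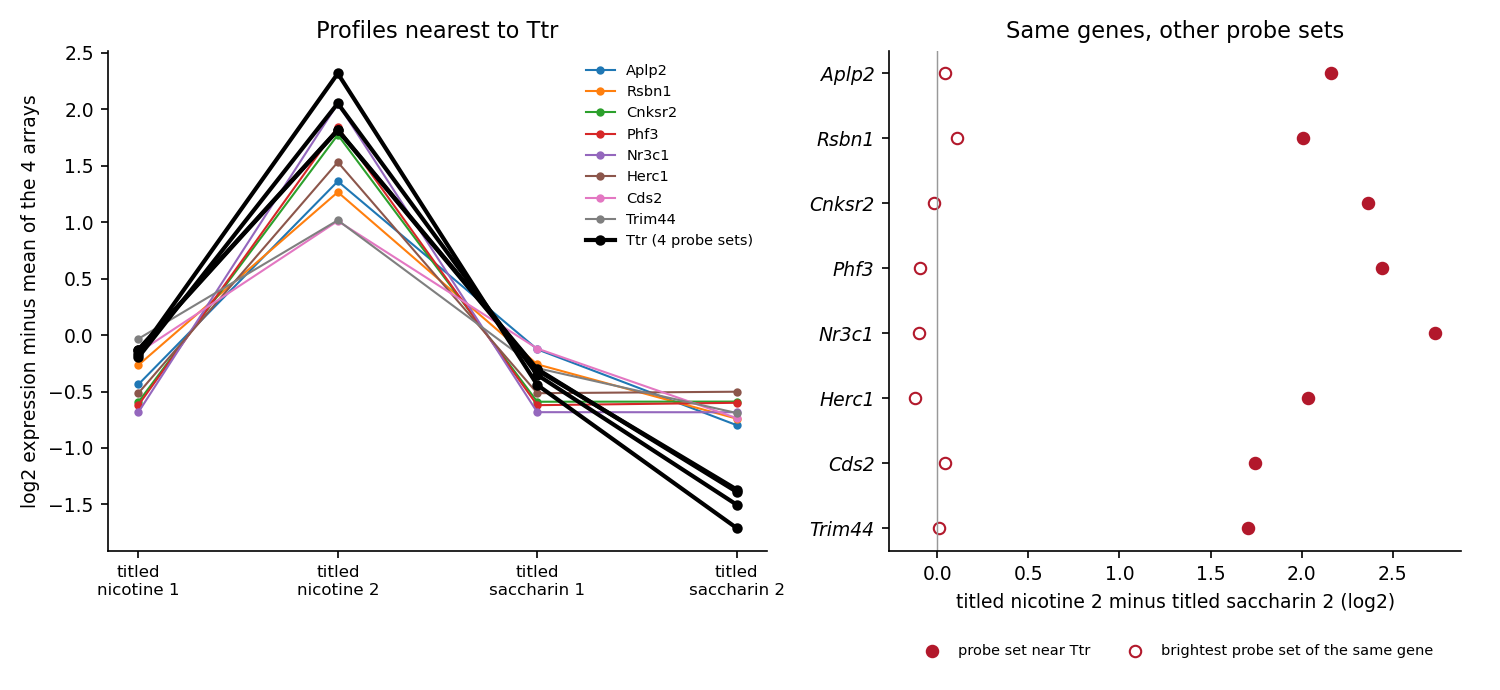
Left, log2 expression minus the mean of the 4 arrays (vertical axis) on each array for the 4 Ttr probe sets in black and the 8 nearest genes in colour. Right, difference titled nicotine 2 minus titled saccharin 2 (log2) of the same 8 genes at the probe set near Ttr (filled) and at their brightest probe set (open), where the open symbols lie between -0.12 and 0.11.

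The authors' deposited table gave Ttr fold changes of opposite sign to the differences above. Its log2 fold changes for the 4 Ttr probe sets were -2.26 to -1.73, with unadjusted p-values of 0.150 to 0.195 and an adjusted p of 1 each. Values of -1.5 or lower were given in the authors' deposited table to 31 of all probe sets (0.0687%), the 4 of Ttr among them. This limit was set with the Ttr values known, so nothing is read from the count. In the authors' deposited table the fold change was -0.70 for Sostdc1, -0.42 for Clic6, -0.25 for Folr1 and -0.13 for Enpp2 at their brightest probe sets, and -0.0030 for Kl. Against the differences by title used here, the correlation across all probe sets was -0.871. The authors' deposited table does not state which group was subtracted. The mean level it lists for the brightest Ttr probe set was 12.59, and that of the 4 arrays was 12.14, so its values were not the ones used here. Of the 14 members, 0 had an adjusted p below 0.05 in the authors' deposited table, where 0.031% of all probe sets did.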

How the data were processed

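The 4 arrays were assigned to groups and numbers by their titles. Values are log2 expression per probe set as deposited by the authors, a scale read from the values; how the arrays were background-corrected, normalized and summarised is not stated in the labels. The authors' deposited table gives log2 fold changes and mean levels, p-values, and a moderated score and log odds, per the file headers; limma is named without a version in the submitters' processing notes. Gene symbols came from that table, with 3214 updated through RefSeq names of GRCm38.p6, and 6778 probe sets had none that could be used.

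The titles were compared with limma 3.58.1 in R 4.3.3 (lmFit, eBayes) on all 4 arrays and probe sets, with Benjamini-Hochberg adjustment, a threshold of 0.05, no filter and no block. The fit had 2.32 total degrees of freedom. It was also run on simulated data with a small independent spread and no shift between numbers, which cannot show how it performs on these arrays. Each p-value reflects how far arrays of a title differed, and that spread may be technical. The brightest probe set (highest mean) stood for a gene in lists. Members, lists and rules were chosen with earlier results of these data known. Named genes are all member probe sets, the 3 genes of each other list with the largest difference within number 2 at or above the median level, the 8 genes nearest to Ttr, and Actb and Gapdh, of which 1 is not reported here; Igf2, Igfbp2, Tcn2, Steap1, Krt18, Ids, Dlg2, Ogfod1 and the genes listed as below background were chosen after their values were seen. Of the listed genes, 6 were not matched to a probe set. Alternatives were quantile normalization, centring, a filter on low values, trend and robust variance, the number as a block, averaging a gene's probe sets, the authors' adjusted p and leaving out each array. Promoters of the members were not used here.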

Additional observations from a re-analysis of the deposited data

How the results depend on the processing

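The Ttr difference within number 2 was 3.19 under quantile normalization, 3.31 with centred arrays and 3.49 as the mean of its 4 probe sets, and it kept its sign in each. By title it lay between 0.72 and 2.66 with 1 array left out. The ranges were -0.019 to 1.34 for Sostdc1, -0.027 to 1.26 for Clic6, -0.036 to 0.33 for Enpp2, 0 to 0.019 for Kl and -0.55 to 0.84 for Folr1, whose sign turned without titled nicotine 2. The mean of all its probe sets moved Enpp2 within number 2 to 0.0096, and centring moved Kl to 0.063 by title and 0.12 within number 2, at background level. With the array number as a block (replicate block) 0 probe sets passed in limma (2217 before adjustment), and the Ttr difference of 1.69 had an SE of 1.32. The number of calls was 0 under quantile normalization, centring, the filter, and the trend and robust model (355, 68, 42 and 65 before adjustment), 14 by the authors' deposited table, and 0 to 379 with 1 array left out (leaving out titled nicotine 1 gave 379 and leaving out titled saccharin 1 gave 277, whereas either array of number 2 gave 0). A fit with 1 array left out takes its spread from the remaining pair of arrays of 1 title, and for some genes this pair was tied or nearly so. Of the members, Folr1 differed by 0.84 without titled nicotine 1, where both arrays titled saccharin read 2.98. Sostdc1 differed by 1.34 without titled saccharin 1, where both arrays titled nicotine read 5.34. Both genes were chosen for such values, so this is no test. Of the other choroid plexus genes, Cp differed by 0.40 and Krt18 by 0.66 without titled nicotine 1. A dim probe set of Trpm3 differed by -2.71 and one of Dab2 by -0.54 without titled saccharin 1. In each of these the remaining pair had the same value, so no test is read from them. The numbers are not explained in the labels, so they pair the arrays by number alone. The number of arrays limits every value, and the dim members Kl and Folr1 lie at or near background.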
